A study of Equus caballus with 15 samples.

Results

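The myotendinous junction (MTJ) sections of the superficial digital flexor muscle were compared with a mixture of muscle and tendon computed for each horse, so that a gene was asked whether its level in the junction section was more or less than its amounts in the 2 neighbouring tissues add up to. All 15 libraries of the study entered, 5 each of muscle, MTJ and tendon sections, and each of the 5 horses gave all 3. For every gene the predicted level of an MTJ section was the horse's muscle level times a muscle share plus its tendon level times a tendon share. The shares came from 2 lists that the authors deposited, 219 genes typical of muscle and 322 typical of tendon (reference genes), as the median ratio of the MTJ level to the level in the gene's own tissue. The log2 of the measured over the predicted level, with 0.5 CPM (counts relative to the size of the library, corrected with edgeR's TMM factors) added to both, gave 5 within-horse ratios per gene. Their mean was tested against 0 for 15343 of the 30297 genes in the table, after a filter on low counts.

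The labels name no treatment. The horses were 4 mares and 1 gelding, numbered 14, 16, 17, 18 and 20 and aged 7, 5, 5, 7 and 6 years, and the tissue came from a front limb after euthanasia. Horses 16, 18 and 20 are labelled as trained and horse 17 as sedentary, while the labels of horse 14 disagree between its sections, so training was not compared. A 4 mm punch of muscle with attached tendon was frozen and cut parallel to the tendon, and about 200 micrometres were collected for each section. The MTJ section was a slab that held muscle and tendon as well as the junction, so its RNA was a mixture by design.

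At the junction, muscle fibres end in folded membrane that is anchored to tendon collagen through integrins and the dystrophin complex. In mouse and human muscle the nuclei at fibre ends transcribe a set of genes of their own, among them the collagen COL22A1, which lies in the basement membrane of the junction. A mixture of muscle and tendon holds little of such a transcript if it is made at the fibre ends alone, whereas a gene made evenly along the fibre or throughout the tendon is predicted by the mixture.

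Library totals ran from 15304218 to 19295339 counts. The tissue labels were checked on defining genes. The skeletal actin ACTA1 stood at 70308 ± 6405 CPM in muscle and 5870 ± 5102 in tendon sections (SD, n = 5), and the cartilage oligomeric matrix protein COMP at 2.76 ± 1.03 and 8553 ± 2004. The tendon marker TNMD was low in tendon sections, at 1.60 ± 1.36 CPM. The tendon sections also held muscle RNA in unequal amounts: muscle reference genes reached 13.7%, 17.6%, 11.7%, 0.328% and 2.56% of their muscle level in the tendon sections of horses 14, 16, 17, 18 and 20. In such bulk sections, fewer cells of a type and less RNA per cell cannot be told apart.

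Most of the RNA in an MTJ section was accounted for by muscle. Muscle reference genes stood at 80.6%, 83.4%, 75.7%, 68.8% and 79.6% of the level in muscle for horses 14, 16, 17, 18 and 20 in turn, a mean of 77.6 ± 5.67% (SD, n = 5). Tendon reference genes stood at 13.7%, 12.3%, 24.5%, 16.8% and 12.2% of their tendon level, a mean of 15.9 ± 5.16%. Horse 17 had the largest tendon share and horse 18 the smallest muscle share. These are ratios on the TMM scale, on which tendon libraries were scaled differently from muscle libraries. On plain CPM the shares were 90.8 ± 3.01% for muscle and 7.90 ± 2.51% for tendon, and their sum lay between 96.0% and 102% in each horse. Among genes predicted at 5 CPM or more, 97.9% to 98.9% of a section's genes were measured within 2-fold of the prediction. Genes predicted lower, such as COL22A1 with a mean of 1.36 CPM, are left out of this percentage. Of all genes tested, 58.6% differed by no more than 2-fold between muscle and tendon sections.

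Against this mixture, 122 genes stood above the prediction and 33 below it by limma at an adjusted p under 0.05, which is 0.795% and 0.215% of the 15343 genes tested. All 155 had the same sign in 5 of 5 horses, and 78 of those above and 16 of those below were off by at least 2-fold. The median log2 ratio of all genes tested was 0.049. Many more genes lay on either side at an unadjusted p under 0.05, namely 1628 above and 736 below. The genes above were of mixed origin. Of the 122, 59 were more than 2-fold higher in tendon than in muscle sections, 15 were more than 2-fold higher in muscle and 48 were neither, against 21.6%, 19.9% and 58.6% of all genes tested. Of the 33 below, 31 were tendon genes by the same measure. The counts depended on each horse: without horse 14, 16, 17, 18 or 20 they were 6, 43, 60, 26 and 23 above and 0, 5, 23, 8 and 2 below. Of all calls 78.7% were above, and 93.6% were with the 2 shares solved jointly (366 above and 25 below).

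**Figure D1:**
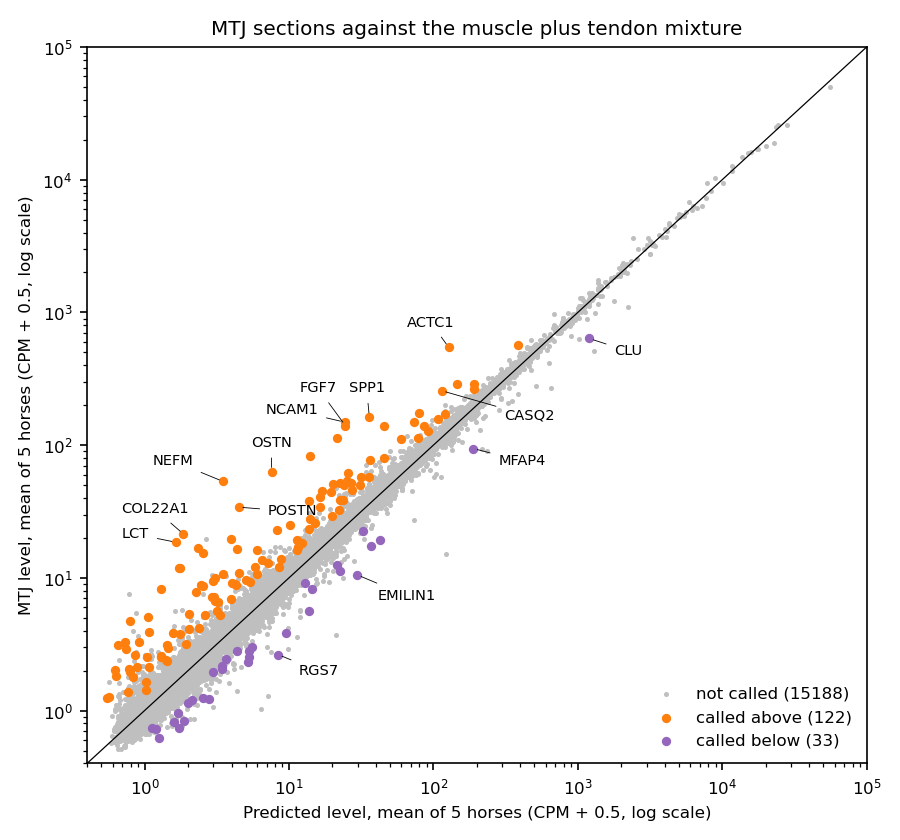
Measured against predicted level of 15343 genes, each as the mean of 5 horses in CPM with 0.5 added, on log axes, with the line of equality. The 122 genes called above lie over the line, mostly at predicted levels under 100 CPM, and the 33 called below lie under it, up to CLU at a predicted 1199 CPM.

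The collagen COL22A1 had the third largest ratio among the genes named, and 3 other genes known from fibre-end nuclei were called with it. COL22A1 on chromosome 9 measured 11.2, 24.9, 25.6, 16.6 and 26.2 CPM in the MTJ sections of horses 14, 16, 17, 18 and 20, where the mixture predicted 0.876, 3.38, 1.04, 0.310 and 1.19 CPM. Every MTJ section was above every predicted value. The log2 ratio was 3.65 ± 0.26 (SE, n = 5; limma adjusted p = 0.00506), a 12.6-fold excess on this scale. Muscle sections held 0.278 ± 0.0963 CPM, and the tendon sections 5.47, 25.7, 3.06, 0.344 and 8.29 CPM, so that the tendon section of horse 16 was as high as its MTJ section.

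SORBS2, which links signalling proteins to actin filaments, measured 49.3, 83.9, 120, 163 and 145 CPM in the MTJ sections against predictions of 12.4, 24.7, 31.3, 13.9 and 22.5 CPM. The measured and predicted values did not overlap, and the log2 ratio was 2.35 ± 0.26 (limma adjusted p = 0.0179). TIGD4, a gene derived from a transposase, stood 2.50 ± 0.28 above the prediction on the log2 scale (limma adjusted p = 0.0182), at 14.8 ± 6.22 CPM measured and 2.04 ± 0.686 predicted. NAV3, a microtubule-binding protein of the navigator family, stood 1.60 ± 0.12 above it (limma adjusted p = 0.00506), at 10.2 ± 2.80 against 3.01 ± 0.775 CPM. In horse 16 the tendon section held more SORBS2 (103 CPM) and TIGD4 (18.5 CPM) than the MTJ section. NAV3 was above both tissues in 2 of 5 horses. All 4 calls ended without horse 14, with adjusted p of 0.0517 to 0.082 by limma. TIGD4 was also not called without horse 16, 18 or 20, nor SORBS2 without horse 20 (limma adjusted p of up to 0.0814). With no filter on low counts NAV3 was the 1 called of the 4.

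The 12 fibre-end markers did not behave alike. Their median log2 ratio was 0.69 and 12 of 12 were positive, with 4 of 12 called. ANKRD1, a stretch-responsive protein of the sarcomere, measured 138, 126, 84.7, 105 and 134 CPM against predictions of 54.8, 59.0, 52.8, 75.4 and 85.3 CPM, and its log2 ratio of 0.84 ± 0.14 missed the threshold (limma adjusted p = 0.0559). The metalloprotease ADAMTS20 (0.93 ± 0.25; limma adjusted p = 0.160) and the collagen COL24A1 (0.54 ± 0.23; 0.324) were also not called. COL24A1 measured 8.20 ± 4.20 CPM in MTJ sections but 25.7 ± 9.88 in tendon sections, and it is a tendon reference gene. The laminin chain LAMA2, the basement membrane protein FRAS1, the cation exchanger SLC24A2, the Notch coactivator MAML2 and UFSP1 had log2 ratios of 0.25 or less. Their levels were thus within 1.19-fold of the mixture. UFSP1 is annotated as an inactive peptidase.

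Genes best known from neurons were among those farthest above the mixture. NEFM, the medium neurofilament chain, on chromosome 2, measured 55.0, 16.6, 84.7, 64.3 and 43.3 CPM in the MTJ sections, and the mixture predicted 4.06, 2.63, 1.51, 3.14 and 3.66 CPM. Its lowest MTJ value, in horse 16, was still above the highest prediction, and the log2 ratio was 3.80 ± 0.38 (limma adjusted p = 0.0170). Muscle sections held 0.550 ± 0.912 CPM of it and tendon sections 19.0 ± 11.5, and NEFM is itself in the tendon reference list.

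The other neurofilament chains did not follow NEFM. NEFL, the light chain, measured 3.40, 6.53, 5.03, 1.85 and 3.24 CPM against predictions of 2.97, 4.28, 2.79, 4.35 and 4.17 CPM. These values overlap, and its log2 ratio was 0.021 ± 0.26 (limma adjusted p = 0.980). Peripherin, PRPH, stood at -0.056 ± 0.25 and internexin, INA, at 0.61 ± 0.30, neither of them called. Schwann cell markers, which mark the glia of nerve bundles, were called in 0 of 10 cases, and their median log2 ratio was -0.18. Fitted to counts with the prediction as offset, the median turned to 0.77 with edgeR and to 0.90 with DESeq2. By horse, the list's median was -0.784, -0.470, -1.14, 2.54 and -0.102 for horses 14, 16, 17, 18 and 20, so only in horse 18 was it above the mixture. The ratio of NEFM in horse 18 was 4.15, within the 2.46 to 5.41 of the other horses.

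NCAM1, a neural cell adhesion molecule that muscle fibres also make at synapses and during regeneration, measured 157, 137, 130, 126 and 193 CPM in the MTJ sections, with predictions of 18.8, 41.2, 22.6, 24.3 and 11.9 CPM. The spread between MTJ sections was narrow and far from the predicted values, and the log2 ratio was 2.71 ± 0.30 (limma adjusted p = 0.0179). PPP2R2B, a neuronal regulatory subunit of protein phosphatase 2A, stood 2.73 ± 0.33 above the mixture (limma adjusted p = 0.0229), at 11.3 ± 4.97 against 1.23 ± 0.558 CPM. In horse 16 its tendon section held 12.4 CPM and its MTJ section 5.94 CPM. UCHL1, a ubiquitin hydrolase of neurons, stood 1.04 ± 0.16 above the mixture (limma adjusted p = 0.0473), at 287 ± 28.4 against 145 ± 48.3 CPM. Muscle sections alone held 175 ± 58.8 CPM of UCHL1. Of the 10 tested genes of the neuronal list 3 were called, namely NEFM, NCAM1 and UCHL1, and the list's median log2 ratio was 0.29. The calls of NEFM, NCAM1, PPP2R2B and UCHL1 ended without horse 14 and also without horse 18, where their adjusted p by limma lay between 0.082 and 0.103 and between 0.0549 and 0.112. Without horse 16 the call of UCHL1 ended, without horse 17 those of NCAM1 and UCHL1, and without horse 20 those of NEFM, PPP2R2B and UCHL1 (limma adjusted p of up to 0.140). With 0.1 CPM added NEFM and NCAM1 were called, and with no filter 0 of the 4.

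A group of 7 named genes above the mixture encode secreted proteins or matrix proteases. The group is not a full count: the collagen COL22A1 and the complement chain C1QC are described elsewhere. The 7 come from several lists and were gathered here after their values were seen. Other secreted proteins, CLU and SOD3 among them, were called below. FGF7, a fibroblast growth factor that fibroblasts secrete and epithelial cells receive, on chromosome 1, measured 74.1, 114, 123, 159 and 230 CPM in MTJ sections against predictions of 15.8, 25.4, 21.4, 18.2 and 39.5 CPM. No measured value overlapped the predicted ones, and the 5 ratios were close to each other, between 2.15 and 3.10 on the log2 scale. Their mean was 2.49 ± 0.15 (limma adjusted p = 0.00344). Tendon sections held 86.4 ± 40.8 CPM and muscle sections 14.9 ± 9.43, and the MTJ section was above both in 3 of 5 horses. Of the 19 genes of the FGF signalling list FGF7 was the one called, and the list's median was -0.065.

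Osteocrin, OSTN, a peptide secreted by muscle and bone, had the largest ratio of all named genes. It measured 56.9, 81.8, 53.9, 61.0 and 59.9 CPM in the MTJ sections, a narrow range, while the predictions were 3.59, 23.2, 5.73, 0.0735 and 2.84 CPM. The log2 ratios ran from 1.80 in horse 16 to 6.75 in horse 18, and the mean was 3.93 ± 0.63 (limma adjusted p = 0.0490). With 0.1 CPM added it was 4.36 (limma adjusted p = 0.130), and fits on counts with the prediction as offset gave 6.15 with edgeR and 6.32 with DESeq2. In horse 16 the tendon section held 106 CPM, more than the MTJ section.

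Periostin, POSTN, a matricellular protein made by fibroblasts, measured 34.6, 29.6, 12.9, 43.0 and 47.9 CPM in MTJ sections against predictions of 6.02, 3.70, 4.42, 2.21 and 3.60 CPM. The lowest MTJ section, that of horse 17, was above the highest prediction, and the log2 ratio was 2.86 ± 0.35 (limma adjusted p = 0.0229). Osteopontin, SPP1, a secreted phosphoprotein also made by macrophages, measured 156, 57.3, 168, 217 and 214 CPM against 30.9, 35.6, 48.6, 40.4 and 22.0 CPM predicted. Its log2 ratio was 2.09 ± 0.33 (limma adjusted p = 0.0490), yet tendon sections held as much, 196 ± 35.3 CPM, and SPP1 is a tendon reference gene. Its measured and predicted values did not overlap. These were the 2 called of 19 matricellular genes, whose median log2 ratio was 0.15 and whose lowest value was -1.74.

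MMP2, the gelatinase that cleaves denatured and basement membrane collagen, measured 32.5, 36.1, 60.3, 40.9 and 52.5 CPM against predictions of 10.5, 17.9, 25.8, 11.1 and 16.5 CPM. The log2 ratio was 1.45 ± 0.14 (limma adjusted p = 0.0149), and every MTJ section was above every prediction. MMP16, a membrane-bound protease that activates MMP2, was above the mixture by 1.03 ± 0.13 (limma adjusted p = 0.0234), at 2.04 ± 0.748 CPM measured. SFRP4, a secreted Wnt antagonist, stood 0.69 ± 0.10 above it (limma adjusted p = 0.0313). Of 24 matrix remodelling enzymes 2 were called above and 1 below, and their median was -0.021. The 7 genes gathered here were FGF7, OSTN, POSTN, SPP1, MMP2, MMP16 and SFRP4. Of these, 1, 3, 3, 2 and 1 were called without horse 14, 16, 17, 18 and 20, FGF7 each time. With 0.1 CPM added in place of 0.5 only FGF7 and MMP2 were called, and with no filter on low counts only FGF7.

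Muscle genes above the mixture were few. ACTC1, the cardiac actin that skeletal muscle makes during development and regeneration, on chromosome 1, measured 1421, 669, 182, 326 and 127 CPM in MTJ sections, where the mixture predicted 335, 166, 21.8, 93.5 and 19.3 CPM. The horses differed more than 10-fold in level, so that measured and predicted values overlap between horses, but within each horse the MTJ section was highest. The log2 ratio was 2.32 ± 0.19 (limma adjusted p = 0.00829), and compared without pairing by horse it was not called (limma adjusted p = 0.617). CASQ2, the cardiac and slow-fibre calsequestrin that stores calcium, measured 281, 323, 194, 267 and 219 CPM against 141, 169, 74.8, 110 and 74.0 CPM, with a log2 ratio of 1.23 ± 0.11 (limma adjusted p = 0.0139; 0.0767 without pairing by horse). Both genes were above both tissues in 5 of 5 horses, and both calls ended without horse 14 (limma adjusted p = 0.0607), that of CASQ2 also without horse 18 (0.0522). With no filter on low counts neither was called (limma adjusted p = 0.0626).

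ACTC1 was the 1 called of 10 developmental and regeneration genes, all 10 of which had a positive log2 ratio, with a median of 0.73. Their members differed by horse. Embryonic myosin, MYH3, measured 57.3, 175, 44.6, 42.4 and 35.3 CPM against predictions of 28.5, 43.1, 38.1, 25.6 and 32.1 CPM, and the section of horse 16 stood apart from the others (log2 ratio 0.82 ± 0.27; limma adjusted p = 0.230). Nestin, NES, an intermediate filament of young fibres, junctions and nerve, had a log2 ratio of 1.32 ± 0.24 (limma adjusted p = 0.0688), and neonatal myosin, MYH8, of 0.37 ± 0.13. The myogenic factors MYOG, MYF5 and MYF6 had log2 ratios of 0.35, 0.080 and 0.11. Without horse 16 the median of the list was 0.40. Reads of ACTC1 and of the myosins could be split between close copies, as the counting method is not given in the sources used here.

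CASQ2 was likewise the 1 called of 12 slow-fibre genes, the median of which was -0.092, and 0 of 12 fast-fibre genes were called, with a median of 0.095. Of these 24 genes 20 are muscle reference genes, which set the muscle share. The ratios of fast-fibre genes spanned -0.19 to 0.25.

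Several genes above the mixture belong to none of these groups. ALDH3B1, an aldehyde dehydrogenase acting on lipid aldehydes, on chromosome 12, measured 22.3, 15.2, 15.2, 26.9 and 15.6 CPM against predictions of 4.10, 2.89, 3.57, 4.47 and 2.42 CPM. Its 5 ratios, between 1.94 and 2.47 on the log2 scale, were the closest to each other among the 15 genes farthest above the mixture, and their mean was 2.28 ± 0.10 (limma adjusted p = 0.00212). ALDH3B1 and FGF7 were the only genes of the 36 named calls that were called under all 16 other settings tried.

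LCT, the intestinal lactase, measured 7.46, 13.7, 25.7, 16.1 and 27.2 CPM in MTJ sections, with a log2 ratio of 3.47 ± 0.38 (limma adjusted p = 0.0179). Muscle sections held 0.231 ± 0.179 CPM of LCT and tendon sections 7.43 ± 6.10. IGSF1, an immunoglobulin superfamily membrane protein, stood 2.85 ± 0.21 above the mixture (limma adjusted p = 0.00506), at 11.4 ± 2.56 against 1.25 ± 0.849 CPM. CIDEA, a lipid droplet protein of fat cells, stood 2.58 ± 0.32 above it (limma adjusted p = 0.0234), at 7.75 ± 3.77 CPM. The tendon section of horse 16 held more LCT (14.4 CPM) and IGSF1 (18.1 CPM) than its MTJ section. The 7 adipocyte markers tested had a median log2 ratio of 0.069 and 0 were called. Without horse 14 the calls of LCT, IGSF1 and CIDEA ended, without horse 16 or 17 that of CIDEA, without horse 18 that of LCT and without horse 20 those of LCT and CIDEA (limma adjusted p of up to 0.0961). With no filter 0 of these 3 were called.

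**Figure D2:**
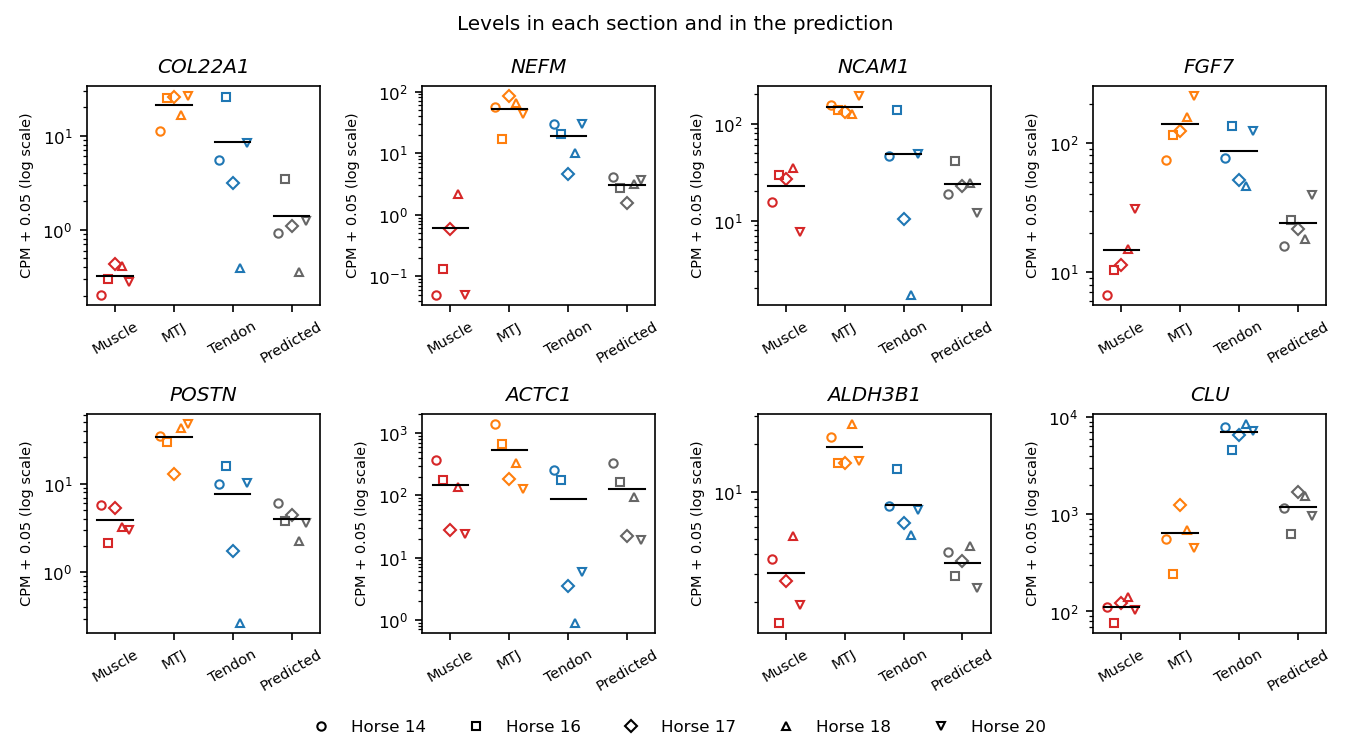
Levels of 8 genes in the muscle, MTJ and tendon sections and in the prediction, in CPM with 0.05 added on a log axis; each symbol is a horse and the black line is the mean of 5. For the 7 genes above the mixture the MTJ mean lies above the predicted one, and CLU lies below its prediction in 5 of 5 horses. The tendon sections of COL22A1, NCAM1, POSTN and ACTC1 span more than 10-fold between horses.

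The genes farthest above the mixture often had their highest tendon level in the same horse. Of the 15 genes farthest above, the tendon level was highest in horse 16 for 12 (80%) and lowest in horse 18 for 11 (73.3%). Among the 445 tested members of the gene lists these percentages were 36.4% and 51.7%, and over all genes tested they were not computed. A high tendon level raises the prediction and so lowers the ratio by construction. The log2 ratio of 9 of the 15 (60%) was lowest in horse 16, against 20.4% of the 445. NCAM1 is an example, with 46.2, 136, 10.2, 1.66 and 48.2 CPM in the tendon sections of horses 14, 16, 17, 18 and 20. Muscle reference genes in those sections were likewise highest in horse 16, at 17.6%, and lowest in horse 18, at 0.328%. Whether junction tissue was cut into the tendon sections was not tested. With the tendon sections of horses 18 and 20, the 2 with the least muscle RNA, used as the tendon term for every horse, 276 genes stood above the mixture and 78 below, 118 of the 122 and 26 of the 33 among them.

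**Figure D3:**
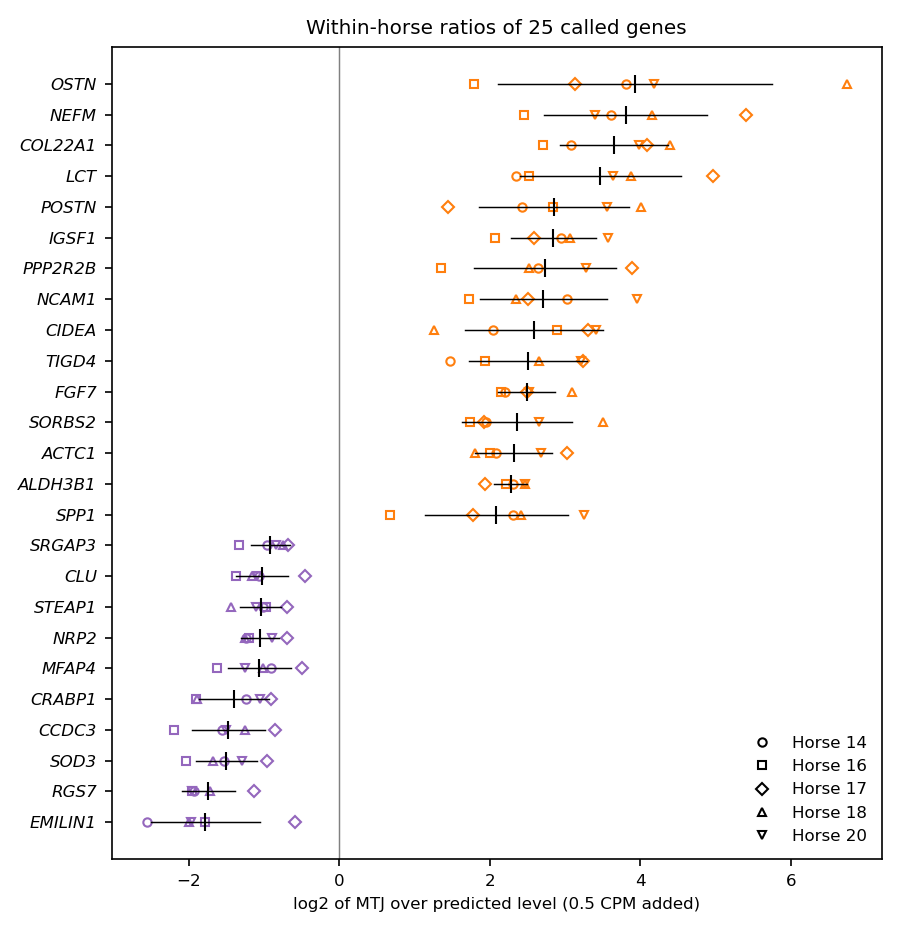
Within-horse log2 ratios of the MTJ level over the prediction for the 15 named genes above and the 10 below. Each symbol is a horse, and each bar is the mean with the SD of the 5 ratios. The 5 ratios of each gene lie on the same side of 0, and those of ALDH3B1 and FGF7 are the tightest of the genes above.

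Nearly all genes below the mixture were tendon genes, 31 of the 33. The 10 farthest below are all tendon reference genes, as were 23 of the 33, so their own ratios entered the tendon share against which they were measured. EMILIN1, a glycoprotein of elastic fibres, measured 4.71, 7.33, 26.3, 6.52 and 5.33 CPM in the MTJ sections, against predictions of 30.2, 26.5, 39.6, 27.4 and 22.2 CPM. The MTJ section of horse 17, which had the largest tendon share, overlapped the predictions, and the other 4 lay below them. The log2 ratio was -1.78 ± 0.26 (limma adjusted p = 0.0392). MFAP4, a microfibril protein that also binds elastic fibres, measured 80.6, 45.7, 130, 121 and 91.8 CPM against 152, 142, 184, 244 and 220 CPM, with a log2 ratio of -1.06 ± 0.16 (limma adjusted p = 0.0435).

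Clusterin, CLU, a secreted chaperone and the most abundant gene called below, measured 557, 243, 1246, 684 and 448 CPM in MTJ sections, where 1170, 631, 1707, 1529 and 958 CPM were predicted. Within each horse the MTJ section was below its prediction, though the values overlap between horses, and the log2 ratio was -1.03 ± 0.14 (limma adjusted p = 0.0281). SOD3, the extracellular superoxide dismutase, stood at -1.50 ± 0.15 (limma adjusted p = 0.0170), and CRABP1, a retinoic acid binding protein, at -1.40 ± 0.18 (0.0237). RGS7, a regulator of G protein signalling, stood at -1.74 ± 0.14 (limma adjusted p = 0.00767), and NRP2, a receptor for semaphorins and vascular growth factors, at -1.05 ± 0.11 (0.0170). The ratios of the secreted protein CCDC3, the STEAP family member STEAP1 and the GTPase-activating protein SRGAP3 were -1.47, -1.05 and -0.91.

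The way the shares were set bears on these calls. The median log2 ratio of the 322 tendon reference genes was -0.30 and that of the 219 muscle reference genes was -0.022, since the tendon share was read from genes that also draw some RNA from the muscle term. On simulated counts the shares likewise came out too high, and more unchanged genes were called than the threshold allows. Of 15025 unchanged genes there, 60 were called below the mixture and 4 above. The 33 genes called below in the measured data are fewer than those 60. The simulation drew every gene with the same spread, unlike the measured genes, so it does not give the number of false calls among the 33. With both shares solved jointly, which lowered the mean tendon share to 11.8%, 366 genes stood above and 25 below, with 17 of the tendon reference genes below and 18 above. Of the 10 genes farthest below 9 were still called then, with log2 ratios of -1.35 to -0.57, and STEAP1 was not (limma adjusted p = 0.0831). Compared without pairing by horse, 0 of the 10 were called, and 0, 3, 9, 1 and 1 were called without horse 14, 16, 17, 18 and 20. With 0.1 CPM added 4 of the 10 were called, and with no filter on low counts 0. Below the mixture by smaller amounts were the basement membrane protein NID2 (-0.52), the transcription factor TWIST2 (-0.76) and the collagen cross-linking enzyme LOXL4 (-0.72), and 0 of these 3 were called with the shares solved jointly or without any single horse.

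Of the structural complexes that anchor the fibre, few genes were called. Of 24 integrin and focal adhesion genes 0 were called, and their median log2 ratio was 0.044, with a range of -0.19 to 0.42. Of 14 genes of the dystrophin-glycoprotein complex 0 were called, with a median of 0.18, 12 positive and a range of -0.82 to 0.40. Of 17 basement membrane genes 0 were called above and 1 below, with a median of 0.094 that was -0.12 without horse 18. Fibrillar and associated collagens had a median of 0.20 and a range of -0.83 to 1.16 with 0 of 13 called, and the median was 0.41 with the shares solved jointly. Energy metabolism followed the mixture closely, with medians of -0.014 for 26 oxidative phosphorylation genes and 0.073 for 16 glycolysis genes, and 0 called in each.

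Tendon cell markers showed 0 calls among 16 genes, 9 of them tendon reference genes, and a median of -0.16. The median turned to 0.16 with the shares solved jointly, to 0.018 with the tendon term from horses 18 and 20 and to 0.058 without horse 16. TNMD, the membrane protein tenomodulin, was above the mixture by 2.04 ± 0.39 without passing the threshold (limma adjusted p = 0.0746), at 1.01, 1.91, 2.26, 4.27 and 7.89 CPM against predictions of 0.249, 0.410, 0.613, 0.0473 and 0.325 CPM. No measured value overlapped the predicted ones. LOX, the collagen cross-linking lysyl oxidase, stood at -1.69 ± 0.31 (limma adjusted p = 0.0722). Decorin, DCN, stood at -0.64 ± 0.20 and PRELP, another proteoglycan, at -0.95 ± 0.26, neither of them called.

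The neuromuscular junction genes went in both directions with 0 of 13 called and a median of -0.24. CHRNE, the adult subunit of the acetylcholine receptor, measured 3.55, 4.25, 3.94, 3.17 and 1.21 CPM against predictions of 13.05, 33.8, 41.6, 4.28 and 10.1 CPM, below the mixture in 5 of 5 horses (log2 ratio -2.17 ± 0.40; limma adjusted p = 0.0726). CHRNG, the fetal subunit, measured 4.56, 35.1, 47.6, 7.96 and 0.876 CPM against 1.67, 3.57, 0.464, 4.93 and 0.227 CPM, above it in 5 of 5 (2.31 ± 0.73; limma adjusted p = 0.217). The receptor kinase MUSK stood at 0.88 ± 0.16 (limma adjusted p = 0.0700). Neither subunit passed the threshold, and the ratios of CHRNG spread from 0.64 to 5.64.

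Of 12 tested macrophage markers 1 was called, the complement chain C1QC, while 12 had a positive log2 ratio, with a median of 0.70. It measured 39.05, 22.9, 50.1, 34.3 and 43.3 CPM against predictions of 17.4, 13.02, 32.2, 22.7 and 25.8 CPM, with a log2 ratio of 0.78 ± 0.10 (limma adjusted p = 0.0281), and the call ended without any single horse (0.0652 to 0.117), with 0.1 CPM added (0.0521) and with no filter (0.0844). The summed level of the list was 265 ± 61.2 CPM measured and 163 ± 54.1 predicted, and 0 of its genes were at 0 throughout. The scavenger receptor CD163 stood at 0.72 ± 0.13 (limma adjusted p = 0.0669) and LYVE1, a hyaluronan receptor of resident macrophages, at 1.04 ± 0.19 (0.0688). The part of macrophage RNA in the excess of SPP1 was not tested.

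Other cell type lists had no gene called above. Their medians were 0.43 for 7 synovial lining markers, 0.41 for 11 fibro-adipogenic progenitor markers, 0.25 for 6 lymphocyte markers, 0.080 for 9 pericyte and smooth muscle markers, 0.042 for 7 satellite cell markers and -0.14 for 12 endothelial markers. Lubricin, PRG4, which coats sliding tissue surfaces, had the largest ratio of the synovial list, 1.25 ± 0.21 (limma adjusted p = 0.0627). Stretch-responsive muscle genes had a median of 0.065 with 0 of 12 called. Of the signalling lists, TGF-beta and BMP genes had a median of -0.097 with 0 of 31 called, Hedgehog and Wnt genes -0.056 with 1 of 27 (SFRP4), and YAP and TAZ targets -0.060 with 1 of 22, the kinase NUAK2 at 0.65 ± 0.089 (limma adjusted p = 0.0309, and 0.0875 to 0.113 without any single horse). Immediate early and heat shock genes had a median of 0.019 with 0 of 19 called, and cell cycle genes 0.11 with 0 of 6.

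**Figure D4:**
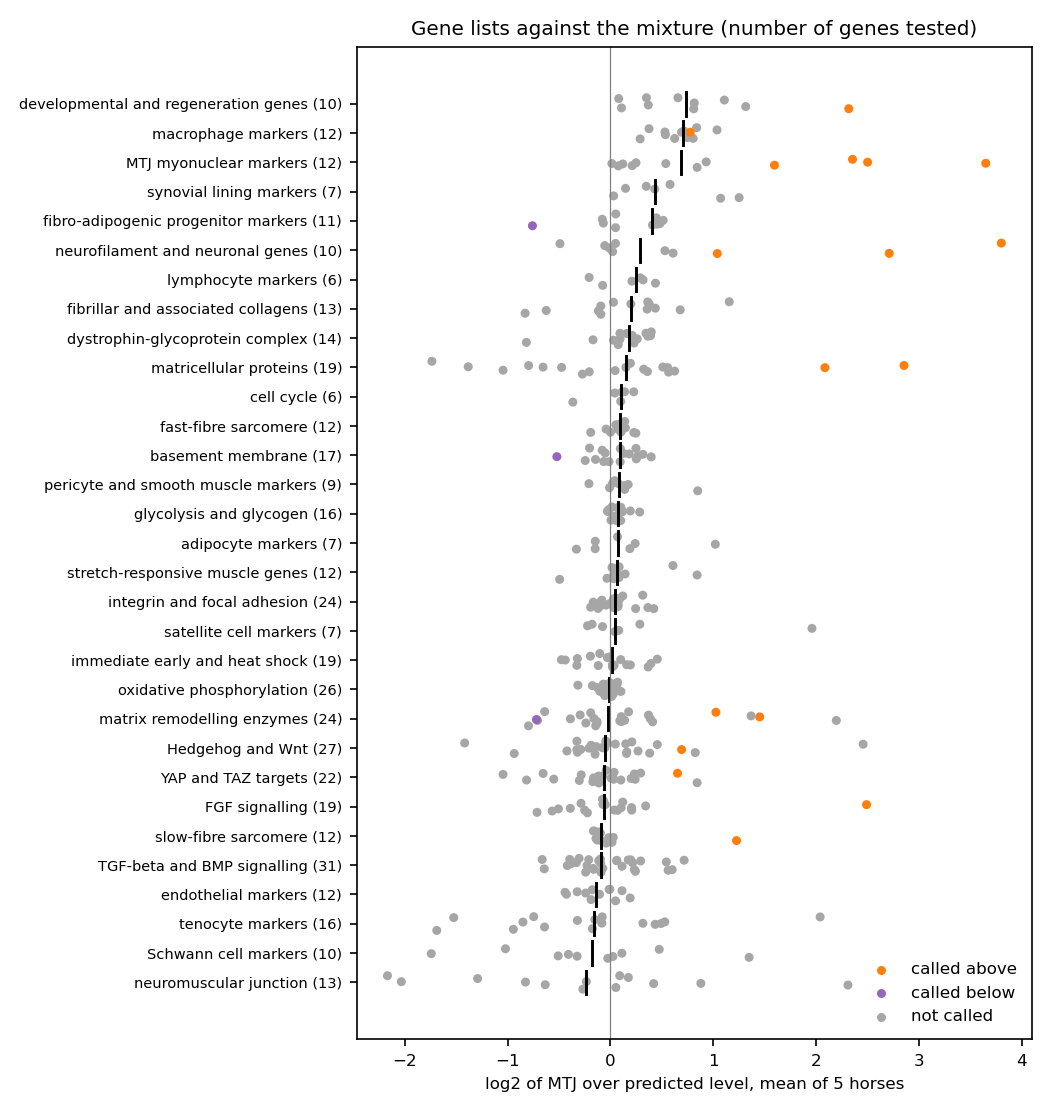
Mean log2 ratio of the MTJ level over the prediction for the tested genes of 31 gene lists, with black ticks at the list medians and coloured points for called genes. Medians run from -0.24 for the neuromuscular junction to 0.73 for developmental and regeneration genes.

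A stricter question is whether a gene was higher in the MTJ section than in either tissue, which no mixture gives as long as the shares sum to no more than the whole. By level alone, 128 genes were above both tissues in 5 of 5 horses, 0.834% of those tested, and 41 of them were among the 122 above the mixture. POSTN, NCAM1, CIDEA, ACTC1, ALDH3B1, UCHL1 and CASQ2 were among the 41, whereas COL22A1, NEFM and OSTN exceeded both tissues in 4 horses and SPP1 in 2. Below both tissues were 106 genes, 0.691%, of which 2 were among the 33. Tested with edgeR against both tissues at once, 0 genes were above and 0 below at an adjusted p under 0.05 (0% of those tested in each direction). For each gene the larger of the 2 p-values counted, and genes between the 2 tissues could not be called. This makes the test strict, so it does not show that no gene exceeded both tissues. At an unadjusted p under 0.05 there were 108 and 83 of the 15343 genes tested. DESeq2, with p-values combined in the same way, gave 3 above and 0 below.

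The 3 genes that DESeq2 called were HHIP, ME1 and CD52, named here after their values were seen. HHIP, a membrane antagonist of Hedgehog ligands, had a log2 ratio to the mixture of 2.46 ± 0.43 (limma adjusted p = 0.0659), at 4.90 ± 3.40 CPM in MTJ sections and 0.369 ± 0.292 predicted. ME1, the cytosolic malic enzyme, stood 1.08 ± 0.078 above the mixture (limma adjusted p = 0.00506), at 11.6 ± 2.78 against 5.33 ± 1.61 CPM, and CD52, a surface glycoprotein of leukocytes, stood 1.43 ± 0.072 above it (limma adjusted p = 0.0023), at 15.7 ± 3.34 against 5.51 ± 1.24 CPM. Muscle and tendon sections held 6.27 ± 1.37 and 4.27 ± 1.89 CPM of CD52, and 5.59 ± 1.54 and 6.24 ± 2.32 CPM of ME1.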

How the data were processed

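Every value comes from the deposited count table, which per the file headers holds raw read counts by gene and library, all whole numbers. The submitters' processing notes name EquCab 3.0 and DESeq2 1.26.0; the sources used here give no aligner, counting program or strand setting, so overlapping genes cannot be told apart. The authors' fold changes and FDR were not used, nor were 15 columns of per-sample values, and their lists gave gene names only.

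Counts were filtered with edgeR 4.0.16 (filterByExpr by tissue) and scaled to CPM with TMM factors in R 4.3.3. The 5 log2 ratios were tested with limma 3.58.1 and Benjamini-Hochberg adjustment over 15343 genes; calls are at an adjusted p under 0.05. Library totals, 15304218 to 19295339 counts, limit low genes. An exact sign-flip test of 5 horses cannot go below 0.0625, so single-gene p-values rest on limma's pooled spread. Genes outside both tissues were tested with edgeR quasi-likelihood fits on 15 libraries with horse as a term, and with DESeq2 1.42.0. Tested on simulated data, the scripts recovered the changed genes. They also called 60 of 15025 unchanged genes below the mixture and 4 above, more than the threshold allows. The shares came out too high there, and whether this gave those calls was not tested. The simulation drew every gene with the same spread between horses and planted changes only in genes at 5 CPM or more. It cannot tell how many changes were missed in the measured sections, nor how many of the calls there were false.

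The horse number marks 1 animal in all 3 tissues. After removal of tissue means, the correlation between 2 sections of a horse was 0.150 to 0.589 (15 pairs), and between sections of different horses and tissues -0.330 to 0.160 (60 pairs). No libraries were identical (0 pairs).

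Named genes were the 15 above and 10 below with the largest log2 ratio among those called with the same sign in 5 horses, at least 5 CPM and a gene symbol, then the 12 fibre-end markers and, from each list, at most 4 called genes; the rule gave 44 genes, and the text names most of them. The comparison, the 31 gene lists and this rule were chosen with earlier results of these data known. Of 493 listed symbols 3 matched no gene and 445 were tested. Alternatives were another normalization, pseudocounts of 0.1 and 2 CPM, no filter, shares solved jointly, a tendon term from 2 horses, leaving out each horse, no pairing, edgeR and DESeq2 fits with the prediction as offset and, added after seeing the data, limma with a mean-variance trend.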

Additional observations from a re-analysis of the deposited data

Results flagged for a closer look

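Of 77 results examined for a lone horse, 3 stood apart from the other 4 horses, and chance alone marks about 1 in 20. The median log2 ratio of the tenocyte markers was -1.08 in horse 16, against -0.102 to 0.0581 in the others. That of the Schwann cell markers was 2.54 in horse 18, against -1.14 to -0.102. That of the Hedgehog and Wnt genes was 0.292 in horse 18, against -0.128 to -0.0433.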

How the results depend on the processing

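Against 122 genes above the mixture and 33 genes below the mixture, the counts were 121 and 33 with DESeq2 size factors and 131 and 38 on plain CPM, where the mean shares were 90.8% for muscle and 7.90% for tendon. They were 63 and 12 with 0.1 CPM added, 281 and 86 with 2 CPM added, and 13 and 3 with no filter, which tested 26156 genes. Shares solved jointly gave 366 and 25 (93.6% of calls above, against 78.7%), and a tendon term from horses 18 and 20 gave 276 and 78. Without 1 horse the counts ran from 6 to 60 above and from 0 to 23 below. With no replicate block, that is without pairing by horse, they were 55 and 1, of which 49 and 1 were calls of the paired test. With the prediction as offset or normalization factor, edgeR gave 583 and 89 and DESeq2 864 and 164, and limma with a mean-variance trend 487 and 149. Outside both tissues DESeq2 gave 3 above, and without horse 18 edgeR gave 1 above and 1 below. None of the 36 named calls changed sign under any setting tried (0 of 36), and 2 to 36 of them kept the call. Several of these settings could hardly turn a sign. Each call had the same sign in every horse, so leaving 1 out kept it almost by construction. Dropping the filter or the pairing, or adding a mean-variance trend, left the log2 ratios of these genes as they were.

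List medians moved beyond the spread between horses in these cases. With shares solved jointly they were 0.41 for collagens, 0.42 for matricellular proteins, 0.062 for TGF-beta and BMP genes and 0.10 for YAP and TAZ targets. With the tendon term from horses 18 and 20 they were 0.40 for collagens, 0.19 for matrix remodelling enzymes and 0.036 for TGF-beta and BMP genes. The DESeq2 fit gave 0.59 for the neuronal genes. Leaving out 1 horse gave 0.40 to 0.78 for developmental and regeneration genes. The cause of these changes was not tested.

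The medians of 14 lists changed sign under some setting. With shares solved jointly this held for tenocyte markers (0.16), FGF signalling (0.088), Hedgehog and Wnt (0.046), TGF-beta and BMP, YAP and TAZ, matrix remodelling enzymes (0.077) and oxidative phosphorylation (0.015). With the tendon term from horses 18 and 20 it held for tenocyte markers (0.018), Hedgehog and Wnt (0.016), TGF-beta and BMP, matrix remodelling enzymes and oxidative phosphorylation (0.0041), and with the edgeR and DESeq2 offset fits for Schwann cell markers (0.77 and 0.90). Leaving out a horse turned tenocyte markers (0.058 without horse 16), basement membrane (-0.12 without horse 18), pericyte and smooth muscle markers (-0.28 without horse 18), fast-fibre genes (-0.056 without horse 14), YAP and TAZ targets (0.035) and FGF signalling (0.0071) without horse 17, and matrix remodelling enzymes, adipocyte and satellite cell markers and immediate early genes, the last 4 to between -0.068 and 0.12.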
